A study of Mus musculus with 8 samples.

Results

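The day 8 comparison covered 2 libraries of cultured mouse hippocampal progenitors, 1 labelled Kmt2d+/βgeo and 1 labelled wild type, collected 8 days after the growth factors EGF and FGF2 were withdrawn. Its members were all cells that the deposited cell table placed in these libraries, 2965 Kmt2d+/βgeo and 3212 wild-type cells, or 6177 of the 30408 cells of the series. Embryos came from Kmt2d+/βgeo males crossed to C57BL/6J females. The labels give the allele as Mll2Gt(RRt024)Byg, a gene-trap insertion in Kmt2d that older nomenclature calls Mll2, and describe the controls as littermates with both Kmt2d copies intact, listing their strain as C57BL/6J. The dentate gyrus was dissected at embryonic day 18 according to the labels, and the study's methods name another embryonic day. Progenitors were grown in Neurobasal medium with both growth factors before withdrawal. Each genotype had 1 library on each of days 0, 2, 4 and 8. Culture, embryo and genotype therefore cannot be told apart, and no test between libraries was possible. Intervals of ratios and of shares of cells below cover counting error only.

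KMT2D is a histone methyltransferase that places methyl groups on lysine 4 of histone H3, chiefly at enhancers, and loss of 1 copy causes Kabuki syndrome in people. Hippocampal progenitors that lose EGF and FGF2 leave the cell cycle and differentiate in culture towards astrocytes and neurons. Astrocyte markers used here include the lipid carrier Apoe, the enzyme Glul, the glycoprotein Sparcl1, the glutamate transporters Slc1a2 and Slc1a3, and Sox9. Gfap, Aqp4, Dcx and Tubb3, defining genes of mature astrocytes and of young neurons, are not among the 9140 genes of the matrix and were not analysed here.

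Levels were compared as mean normalised counts, obtained by undoing the deposited log2 scale, on which every cell sums to 8707.1 over the matrix genes. Ratios are given as log2 of the Kmt2d+/βgeo mean over the wild-type mean, so a ratio above 0 is higher in Kmt2d+/βgeo. The Kmt2d+/βgeo library was the shallower, with a median of 3972 against 6989 unique molecular identifiers (UMIs, each marking 1 captured RNA molecule) per cell on the matrix genes, and 1917 against 2756.5 genes per cell. After every cell was thinned to 3000 UMIs the median genes per cell were 1485 and 1518, with 765 Kmt2d+/βgeo and 4 wild-type cells left out for having fewer. Values given as after thinning are from this setting, which thus also lacks the shallowest Kmt2d+/βgeo cells. Thinning to 1500 UMIs left out 73 and 0 cells and is given where the settings part. Between any 2 of the 8 libraries at most 10 cell barcodes were shared, and the day 8 pair shared 4.

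Kmt2d itself (ENSMUSG00000048154, chromosome 15, 98831669 to 98871204 on GRCm38) was at a mean normalised count of 0.290 in the Kmt2d+/βgeo library and 0.241 in the wild-type library. That is a log2 ratio of 0.27, which was 0.25 at 1500 UMIs per cell and -0.23 at 3000 UMIs, where the counting interval of -0.52 to 0.067 included 0. This interval did not reach -1, the ratio for a trapped copy that gave no counted tag while the other copy was unchanged. No source used here states where the trap lies or whether a trapped copy gives counted 3′ tags. The genotype was therefore not tested with this gene, and the libraries are called by their labels.

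Across the matrix, 7576 genes reached a mean normalised count of 0.1 in at least 1 of the 2 libraries. With a log2 ratio of 1 or -1 as the threshold, 156 genes (2.06%) were higher in Kmt2d+/βgeo and 213 (2.81%) were lower. The median log2 ratio of all compared genes was 0.011 and their SD 0.49. Differences of mean log2 values, a scale that shrinks the ratios of low genes, put 4 genes higher and 26 lower, so that higher genes made up 13.3% of those past the threshold there and 42.3% on the scale of mean counts. Of the 130 genes with a mean of at least 10 in either library, 1 was higher (Lgals1, a secreted lectin, at 14.5 against 6.98) and 9 were lower. Those 9 were Apoe, Cpe, Ubb, Ednrb, Sparcl1, Prdx2, Hspa8, Lxn and Ldhb, of which Prdx2 (-1.02) and Lxn (-1.04) were at -0.94 and -0.88 after thinning, short of the threshold. Lgals1, Ubb, Prdx2 and Lxn were named after their values were seen.

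**Figure D1:**
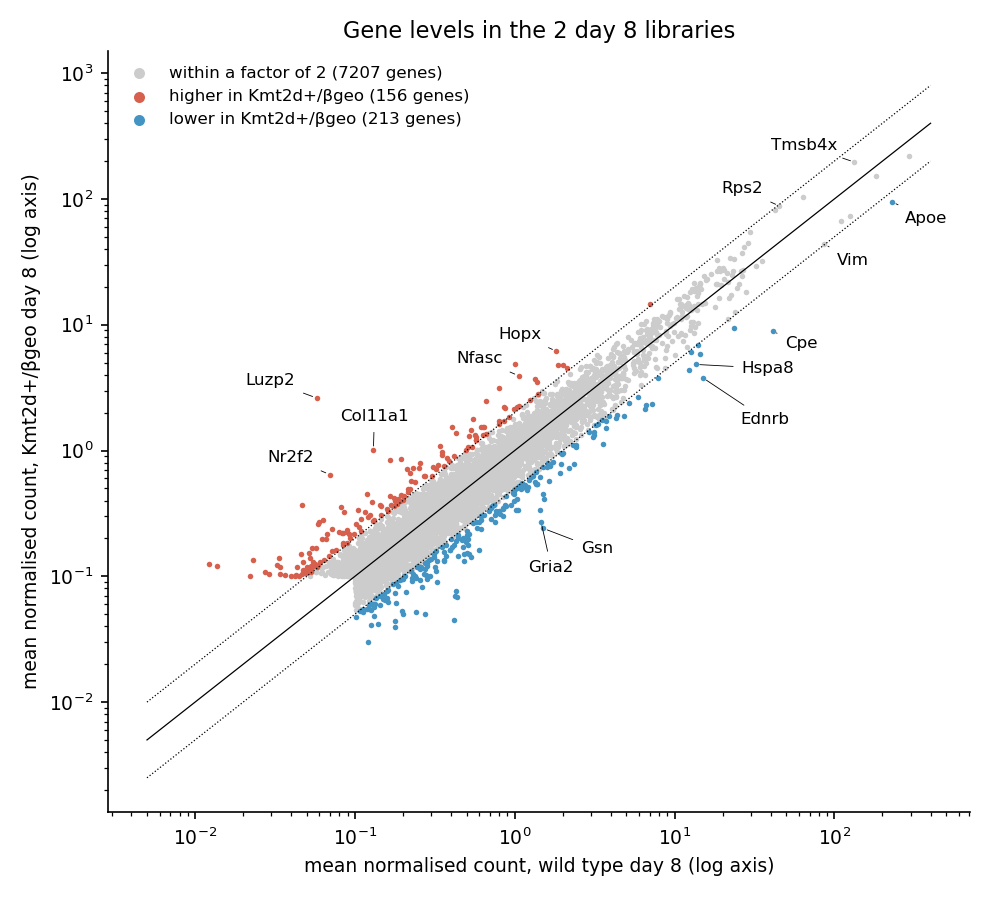
Mean normalised count of each compared gene in the wild-type library (horizontal, log axis) and the Kmt2d+/βgeo library (vertical, log axis) at day 8, with the line of equal levels solid and a log2 ratio of 1 or -1 dotted. Most genes lie between the dotted lines, 156 lie above them, led by Luzp2, and 213 lie below, with Apoe and Cpe as the most abundant.

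Among the genes with the highest ratios, Luzp2, which encodes a leucine zipper protein (ENSMUSG00000063297, chromosome 7, 54835498 to 55268885), came first with a mean normalised count of 2.62 in Kmt2d+/βgeo and 0.0575 in wild type. Its log2 ratio was 5.51, and 5.38 (5.03 to 5.75) after thinning. A Luzp2 UMI was found in 50.2% (48.1 to 52.3) of thinned Kmt2d+/βgeo cells and 1.71% (1.29 to 2.23) of thinned wild-type cells, against 58.4% and 3.55% before thinning. These and the following share intervals are exact Clopper-Pearson 95% intervals, and no cell type known to lack the gene was defined to give a background share.

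Col11a1, a fibrillar collagen chain (ENSMUSG00000027966, chromosome 3, 114030540 to 114220718), was at 1.01 and 0.131, a log2 ratio of 2.95. Nr2f2, an orphan nuclear receptor of regional patterning, was at 0.645 and 0.0694, a ratio of 3.21. Lrp4, a receptor-like protein of the LDL receptor family that modulates WNT signalling, was at 0.843 and 0.166, a ratio of 2.35 that was 2.08 after thinning. All 3 had a mean under 0.2 in wild type. Nfasc, the adhesion molecule neurofascin, was at 3.93 and 1.06, a ratio of 1.90, and a UMI was present in 69.2% (67.3 to 71.2) and 29.2% (27.7 to 30.8) of thinned cells, or 76.5% and 51.9% before thinning. Hopx, a homeodomain protein that marks quiescent hippocampal stem cells, was at 6.16 and 1.82, a ratio of 1.76. It was found in 71.9% (69.9 to 73.7) and 39.0% (37.3 to 40.7) of thinned cells, and in 72.5% and 60.4% before thinning. Cells that had Hopx held 3.18 and 1.58 UMIs of it on average after thinning, so both the share of cells and the count per cell were higher in Kmt2d+/βgeo. Ppp1r1a, an inhibitor of protein phosphatase 1, had a ratio of 1.98, Lypd1, a membrane-anchored modulator of acetylcholine receptors, 1.73, and the long non-coding RNA Fzd10os 2.13. Gm47283, a long non-coding RNA gene annotated on chromosome Y (90784738 to 90816465), was at 4.85 and 1.01, a ratio of 2.27. Whether its reads came from chromosome Y alone was not tested.

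Among the genes with the lowest ratios, Cpe, a carboxypeptidase that trims neuropeptides, was at 8.86 in Kmt2d+/βgeo and 41.1 in wild type, a log2 ratio of -2.21. Nearly all thinned cells had a Cpe UMI, 89.0% (87.6 to 90.3) and 99.4% (99.1 to 99.6), or 91.1% and 99.8% before thinning, but cells that had it held 3.41 and 14.2 UMIs on average. For this gene the gap thus lay mainly in the count per cell. Ednrb, the endothelin B receptor, was at 3.78 and 15.0, a ratio of -1.99. Gsn, the actin-severing protein gelsolin, had the lowest ratio among genes of at least 0.5 in either library, at 0.240 and 1.51, or -2.65. It was found in 7.95% (6.86 to 9.16) and 33.8% (32.1 to 35.4) of thinned cells, and in 9.71% and 55.9% before thinning. Gria2 encodes an AMPA-type glutamate receptor subunit (ENSMUSG00000033981, chromosome 3, 80681450 to 80802835). It was at 0.273 and 1.46, a ratio of -2.42 that was -2.75 after thinning. A Gria2 UMI was found in 5.18% (4.29 to 6.19) and 33.5% (31.9 to 35.2) of thinned cells, or 8.36% and 57.04% before thinning.

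Tagln3, a neuronal actin-binding protein, had a ratio of -2.10, Atp1b1, a sodium pump subunit, -1.88, Kcnk1, a potassium leak channel, -1.78, and Cd9, a tetraspanin, -1.67. Rnf180, a ubiquitin ligase, was at -1.91, Nkain4, which interacts with the sodium pump, at -1.89, and Glod4 at -1.63. All 24 genes named as highest or lowest passed the same threshold after thinning, which the rule that chose them required.

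Promoter sequence is shown for the 3 highest genes and the lowest gene among those with 1 listed start. Lysine 4 methylation of histone H3 also occurs at CpG-rich starts, but KMT2D acts chiefly at enhancers, which these windows do not represent. Of the 24 genes, 18 matched the RefSeq promoter table by symbol and 13 had 1 start there. The sequences are the 250 bases before the start on GRCm38.p6, credited to RefSeq, written 5′ to 3′ on the gene's strand, with each CpG (CG on either strand) in capitals. They lie at chr7:54834995-54835244 on the plus strand for Luzp2, chr7:70366747-70366996 on the minus strand for Nr2f2, chr3:114030290-114030539 on the plus strand for Col11a1 and chr3:80802836-80803085 on the minus strand for Gria2.
Luzp2: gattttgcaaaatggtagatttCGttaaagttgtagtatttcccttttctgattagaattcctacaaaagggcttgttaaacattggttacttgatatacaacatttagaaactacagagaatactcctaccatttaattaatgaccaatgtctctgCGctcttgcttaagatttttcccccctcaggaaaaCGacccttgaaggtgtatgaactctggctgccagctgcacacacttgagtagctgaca
Nr2f2: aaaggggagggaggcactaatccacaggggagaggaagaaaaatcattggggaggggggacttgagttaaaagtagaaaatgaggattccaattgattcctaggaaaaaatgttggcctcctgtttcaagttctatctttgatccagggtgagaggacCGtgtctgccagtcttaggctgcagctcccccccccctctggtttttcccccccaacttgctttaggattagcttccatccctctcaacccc
Col11a1: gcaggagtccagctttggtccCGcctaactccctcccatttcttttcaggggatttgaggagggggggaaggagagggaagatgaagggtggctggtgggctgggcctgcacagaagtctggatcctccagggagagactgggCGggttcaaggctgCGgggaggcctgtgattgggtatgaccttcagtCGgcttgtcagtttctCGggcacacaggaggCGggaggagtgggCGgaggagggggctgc
Gria2: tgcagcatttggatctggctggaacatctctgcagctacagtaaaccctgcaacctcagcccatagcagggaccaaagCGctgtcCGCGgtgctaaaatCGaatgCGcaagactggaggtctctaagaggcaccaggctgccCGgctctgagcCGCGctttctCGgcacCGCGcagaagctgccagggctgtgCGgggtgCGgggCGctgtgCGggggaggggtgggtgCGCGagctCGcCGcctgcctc
The Luzp2 window held 3 CpGs, that of Nr2f2 1, that of Col11a1 7 and that of Gria2 19. These 4 do not stand for the 13 genes with 1 start. Over the 13, windows of higher genes held from 1 (Nr2f2) to 34 (Notch2) CpGs, and those of lower genes from 0 (Kcnk1) to 29 (Glod4). Of 32851 windows of this length in the table, 92.1% held at least 1, and 18.8% held no more than that of Nr2f2, 37.8% no more than that of Luzp2 and 82.1% no more than that of Gria2. The letters describe the windows, and no comparison between higher and lower genes was made because fewer than 80% of these genes matched the table.

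The largest differences in absolute level to the lower side were those of Apoe, Dbi, Prdx6, Cst3 and Vim, and those to the higher side were of Tmsb4x, Rps2, Rpl41, Actb and Rplp0. Apoe, the lipid carrier of astrocytes (chromosome 7, 19696109 to 19699188), had the largest difference, at 94.7 against 230 normalised counts. Its log2 ratio was -1.28, and -1.07 (-1.08 to -1.06) after thinning. The 10th, 50th and 90th percentiles of Apoe over cells were 20.2, 82.6 and 185 in Kmt2d+/βgeo and 145, 224 and 330 in wild type. The lower mean thus came with a downward shift of the whole distribution, and the 90th percentile in Kmt2d+/βgeo was below the wild-type median. Vim, the intermediate filament of immature glia, was at 43.7 and 86.6, a ratio of -0.99. Its percentiles were 18.8, 40.3 and 73.5 against 50.5, 85.9 and 125. Prdx6, a peroxiredoxin, was at 73.3 and 125, Cst3, a secreted protease inhibitor, at 66.7 and 111, and Dbi, the acyl-CoA binding protein, at 218 and 293. Their ratios were -0.77, -0.73 and -0.42, short of the threshold. In the same order they were -0.64, -0.56 and -0.30 after thinning, and -0.47, -0.35 and -0.30 in cells of 4000 to 8000 UMIs. With every cell thinned to 1500 UMIs, which left out fewer shallow Kmt2d+/βgeo cells, they were -0.75, -0.73 and -0.41, near the values with all cells. The size of these differences at like depth thus varied with the setting, and the reason was not tested.

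Differences to the higher side were led by Tmsb4x, an actin-sequestering peptide, at 196 against 134 (0.55), and by the ribosomal genes Rps2 at 87.9 against 45.3 (0.96), Rpl41 at 104 against 63.5 (0.71) and Rplp0 at 54.2 against 29.8 (0.86), log2 ratios in parentheses. Actb, cytoplasmic actin, was at 81.6 and 42.8, a ratio of 0.93 that was 0.89 at 1500 UMIs per cell and 0.43 at 3000 UMIs. None of these 5 reached a log2 ratio of 1, whereas Apoe passed the threshold on the lower side.

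Of 30 astrocyte markers, 17 were in the matrix and all 17 were compared. Of these, 0 were higher and 4 were lower past the threshold, beside 2.81% of all genes for the latter, with a list median of -0.46 against 0.011 over all genes. The 4 were Glul, glutamine synthetase (0.451 and 1.49, ratio -1.73), Sparcl1 (5.82 and 14.4, ratio -1.30), Apoe, and Acsbg1, an acyl-CoA synthetase (ratio -1.01, and -0.98 after thinning). In wild type Glul was at 1.60 on day 0, 7.35 on day 2, 4.90 on day 4 and 1.49 on day 8. Of the 13 markers short of the threshold, 6 were above 0 and 7 below. Aldh1l1, a folate enzyme, had a ratio of -0.94, the calcium-binding protein S100b -0.82, the gap junction protein Gja1 -0.57 and the glutamate transporter Slc1a3 -0.46. Slc1a2, the other main glial glutamate transporter, was at 2.08 and 1.53, a ratio of 0.44. Sox9, a glial transcription factor, was at 7.16 and 6.91, a ratio of 0.05 that was 0.04 at 1500 UMIs per cell and -0.21 at 3000 UMIs. The summed level of the 17 genes was 225 in Kmt2d+/βgeo and 416 in wild type, of which Apoe held 94.7 and 230.

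Radial glia and neural stem cell markers were divided. Beside 2.06% higher and 2.81% lower over all genes, 2 of the 13 compared were higher and 1 lower. Hopx and Pdpn, a membrane mucin (2.22 and 0.862, ratio 1.37), were higher. Prom1, the stem cell membrane protein prominin, was lower (0.144 and 0.369, ratio -1.35), and the list median was 0.13. The summed level of the list was 89.9 in Kmt2d+/βgeo and 132 in wild type, of which Vim held 43.7 and 86.6. Fabp7, a brain fatty acid binding protein of radial glia, was at 15.0 and 15.5 with a ratio of -0.05, which was -0.05 at 1500 UMIs per cell and 0.10 at 3000 UMIs. Markers of other cell types had few compared members, against the same 2.06% and 2.81% of all genes. Of 36 neuron markers 7 were compared, with a median of 0.16 (-0.0039 after thinning), and Rbfox3, a neuronal splicing factor, was the 1 past the threshold (0.113 and 0.0472, ratio 1.26, or 0.96 after thinning). Of 22 oligodendrocyte lineage markers 6 were compared, with a median of -0.05, and Bcas1 was higher (0.169 and 0.0538, ratio 1.65). Olig2, the lineage transcription factor, was at 1.48 and 0.911, a ratio of 0.70 that was 0.66 at 1500 UMIs per cell, 0.37 at 3000 UMIs, -0.08 in cells of 4000 to 8000 UMIs and 1.09 without the shallowest cells of each library. Ependymal markers had 2 of 14 genes in the matrix, microglia markers 1 of 17 and vascular and fibroblast markers 0 of 18. The part of cell makeup in these results was not tested.

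Several metabolic and proteostasis lists stood on the lower side in Kmt2d+/βgeo. Among 19 genes of the unfolded protein and amino acid stress list, 0 were higher and 4 lower, with a median of -0.35. Beside these and the following counts stand 2.06% higher and 2.81% lower over all genes. Of the 4, Phgdh and Psph, the first and last enzymes of serine synthesis, were at 2.33 and 7.19 (ratio -1.63) and at 1.40 and 2.90 (ratio -1.06, and -0.94 after thinning). Asns, asparagine synthetase, was at 0.161 and 0.395, a ratio of -1.29, and Hspa5, the chaperone of the endoplasmic reticulum, was at 1.62 and 3.34, a ratio of -1.04. Of 8 immediate early and heat shock genes, 2 were lower. Hspa8, the constitutive cytosolic chaperone, was at 4.84 and 13.6, a ratio of -1.49, and Hsp90aa1 was at 2.38 and 5.16, a ratio of -1.12. These 2 are constitutive or stress chaperones rather than immediate early genes.

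Glycolysis and hypoxia genes had a median of -0.31 over 22 compared. Ldhb, a lactate dehydrogenase subunit, was at 4.37 and 12.3 (ratio -1.496) and Pfkp, a phosphofructokinase, at 0.0956 and 0.281 (ratio -1.56), whereas Hif1a, the hypoxia-responsive transcription factor, was at 2.17 and 0.870 (ratio 1.32). Lysosome genes had a median of -0.41, with 25 of 28 below 0, and the protease Ctsl (1.88 and 4.86, ratio -1.37) was among those past the threshold. Oxidative phosphorylation subunits had a median of 0.07 over 65 genes, and 0 were higher and 5 lower. These 5 were Cox6b2, Uqcrc2, Ndufa9, Ndufs1 and Uqcrc1, of which Uqcrc2, a core subunit of complex III, was at 0.779 and 1.95. Ndufs1 and Uqcrc1 were at -0.84 after thinning.

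The next lists were added after the values were seen and are a description only. Of 36 proteasome subunits 32 were below 0, with a median of -0.67 and 3 past the threshold, Psmc4 (0.567 and 1.34), Psmc2 (0.501 and 1.17) and Psmd14 (ratio -1.02, and -0.90 after thinning). Of 21 citric acid cycle and pyruvate entry enzymes 19 were below 0, with a median of -0.56 and 5 past the threshold, among them Mdh1 (ratio -1.31), Suclg1 (1.32 and 3.11, ratio -1.23) and Idh3b (ratio -1.03, and -0.94 after thinning). All 18 mitochondrial fatty acid oxidation enzymes were below 0, with a median of -0.71 and Decr1, Acaa2 and Acadl past the threshold. All 8 cytosolic chaperonin subunits were below 0 as well, with a median of -0.76. Mitochondrial ribosomal protein genes, also added, had a median of -0.03 over 46 genes, with 23 above 0 and 23 below, and of 0.08 after thinning. The 44 cytosolic ribosomal protein genes, a list not added in this way, had a median of 0.42 with 37 above 0, though 0 passed the threshold. Their summed level was 919 in Kmt2d+/βgeo and 640 in wild type.

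**Figure D2:**
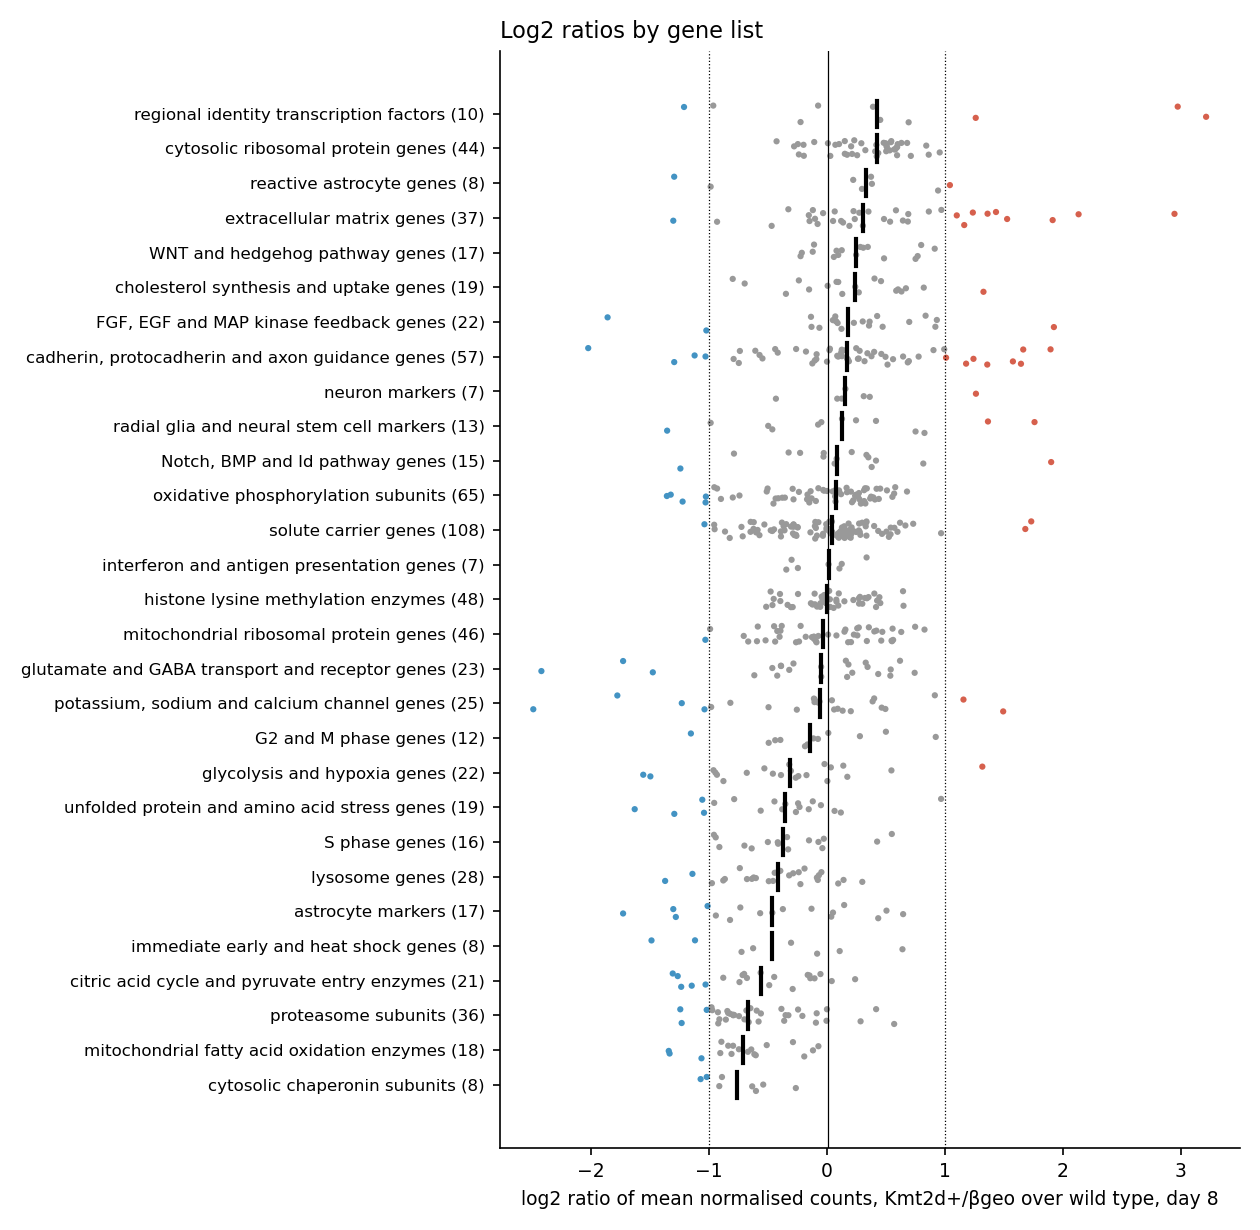
Log2 ratio at day 8 of each compared member of the gene lists with at least 7 compared genes (number in parentheses), with the list median as a black bar, the median of all genes as a solid line and ratios of 1 and -1 dotted. Regional factors, ribosomal protein genes and reactive astrocyte genes lie highest by median, and chaperonin, fatty acid oxidation, proteasome and citric acid cycle genes, lists added after the values were seen, lie lowest.

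Extracellular matrix genes were the list with most higher members. Of 37 compared, 9 were higher and 1, Sparcl1, was lower, beside 2.06% of all genes for the former, with a median of 0.31. Besides Col11a1, these were Fn1, fibronectin (0.723 and 0.251, ratio 1.53), Timp3, an inhibitor of metalloproteinases (4.79 and 1.86, ratio 1.36), Vcan, the proteoglycan versican (0.450 and 0.120, ratio 1.91), the collagen chains Col4a5 (ratio 1.24) and Col5a3 (ratio 2.13), Adamtsl1, Adamts12 and Matn2. The summed level of the list was nearly equal, at 53.9 and 52.0, although only 1 of the 10 members past the threshold was lower. Among 57 cadherin, protocadherin and axon guidance genes 8 were higher and 4 lower, beside 2.06% and 2.81% of all genes, with a median of 0.17 that was -0.0039 after thinning. Plxdc2, a plexin-domain receptor (0.800 and 0.256, ratio 1.65), Robo1, the Slit receptor (0.197 and 0.0622, ratio 1.66) and Pcdh17 (ratio 1.58) were among the higher. Epha5, an ephrin receptor (0.619 and 1.26, ratio -1.03, and -1.31 after thinning), was among the lower.

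Of 10 regional transcription factors compared, 3 were higher and 1 lower, against 2.06% and 2.81% of all genes. Nr2f2 and Irx5 (0.367 and 0.0467, ratio 2.97) were higher, and the related homeodomain factors Meis1 and Meis2 went opposite ways, Meis1 at 0.743 and 0.310 (ratio 1.26) and Meis2 at 0.620 and 1.44 (ratio -1.21). Among signalling lists, 1 of 15 Notch, BMP and Id genes was higher and 1 lower, beside the same shares of all genes. In the list of 22 FGF, EGF and MAP kinase genes, 1 was higher and 2 were lower. Notch2, a Notch receptor, was at 2.48 and 0.664 (ratio 1.90, 1.86 at 1500 UMIs per cell and 1.34 at 3000 UMIs) and the BMP receptor Bmpr1b at 0.214 and 0.505 (ratio -1.24) among 15 Notch and BMP genes. Spry2, a feedback inhibitor of receptor tyrosine kinases, was at 1.54 and 0.405 (ratio 1.92, 1.82 at 1500 UMIs per cell and 1.24 at 3000 UMIs), with Fgf1 (ratio -1.86) and its receptor Fgfr2 (ratio -1.02) lower among 22 FGF, EGF and MAP kinase genes. WNT and hedgehog genes had 0 of 17 past the threshold.

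Of 23 glutamate and GABA genes compared, 3 were lower and 0 higher, set against 2.81% and 2.06% of all genes, namely Gria2, Glul and Grm5, a metabotropic glutamate receptor (0.304 and 0.845, ratio -1.48). Of 25 ion channel genes 4 were lower, among them Kcnj16, an inward rectifier (0.0764 and 0.429, ratio -2.49), Kcnk1 and Kcnk2 (ratio -1.04, and -0.93 after thinning), and 2 were higher. Of 108 solute carriers 2 were higher, Slc35f1 (ratio 1.73) and Slc8a1 (ratio 1.68). Cholesterol genes had 1 of 19 past the threshold, Insig1, which retains the sterol sensor in the endoplasmic reticulum (ratio 1.33, and 1.01 after thinning). Reactive astrocyte genes split, with the hyaluronan receptor Cd44 higher (1.36 and 0.662, ratio 1.04, and 0.90 after thinning) and Cd109 lower (0.485 and 1.19, ratio -1.29). The summed level of that list was 59.7 and 98.4. Interferon genes had 0 of 7 and histone lysine methylation enzymes 0 of 48 past the threshold, the latter with a median of 0.00 and a highest and lowest ratio of 0.65 and -0.51.

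Summed levels of both cell cycle lists were lower at day 8 than at day 0 under both labels. S phase genes summed to 15.4 in Kmt2d+/βgeo and 12.3 in wild type on day 0. G2 and M phase genes summed to 23.1 and 20.6 on day 0, 7.23 and 7.46 on day 2, and 10.8 and 11.0 on day 8. S phase genes had 0 of 16 past the threshold, beside 2.06% higher and 2.81% lower over all genes. Their summed levels at day 8 were 4.21 and 4.85. Of the 16, 14 were below 0, with a median of -0.38. Only 3 members had a mean of at least 0.5 in either library, and the median of those was 0.43. The G2 and M phase list had 1 of 12, Top2a, the mitotic topoisomerase, at 0.0550 and 0.122. Its ratio of -1.15 was -0.91 (-1.39 to -0.44) after thinning and -0.48 at 1500 UMIs per cell. Of the Y-linked genes Eif2s3y, a translation initiation factor subunit, was lower (0.456 and 0.982, ratio -1.11), while Ddx3y (0.655 and 0.761, ratio -0.22), Kdm5d (ratio -0.10) and Uty (ratio 0.40) were short of the threshold.

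The ratios were next set beside those of the same genes on earlier days, from other libraries of the same labels. Over the 7576 genes, 0.832% were higher and 0.977% lower past the threshold at day 0, and 1.65% and 1.11% at day 2. Of the 156 genes higher at day 8, 33 were also higher at day 0 and 48 at day 2, or 21.2% and 30.8%. Above 0 were 80.8% and 85.3% of them, beside 45.2% and 49.5% of all genes. Of the 213 lower genes, 22 were also lower at day 0 and 36 at day 2, or 10.3% and 16.9%. Below 0 were 59.6% and 58.2% of these, near the 54.8% and 50.5% of all genes. A set of 27 genes was higher on days 0, 2 and 8, among them Luzp2, Nr2f2, Col11a1, Nfasc, Plxdc2, Meis1 and Irx5, and 15 were lower on all 3 days, among them Cpe, Tagln3, Rnf180, Meis2, Kcnj16 and Cd109. At day 4 none of the 7576 genes passed in either direction. The day 4 library labelled Kmt2d+/βgeo had a Luzp2 level of 0.0502, beside 0.0422 in its wild-type partner and 1.48 and 2.62 in Kmt2d+/βgeo on days 2 and 8. The label of that library is in doubt, and values from it are given without a direction.

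Small ratios on days 0 and 2 were less common among the lower genes than among all genes, and more common than among the higher genes. Of the 213, 108 had a ratio within 0.5 of 0 on both day 0 and day 2, or 50.7%, against 45 of the 156 higher genes, or 28.8%, and 83.6% of all genes. Phgdh began at 6.13 and 4.47, with Kmt2d+/βgeo first, was at 11.1 and 8.99 on day 2, and ended at 2.33 and 7.19. Hspa8 began at 27.2 and 27.8, was at 35.0 and 30.7 on day 2, and ended at 4.84 and 13.6. It was lower at day 8 than at day 2 under both labels, further in Kmt2d+/βgeo. Ldhb was at 4.51 and 4.25, then 8.76 and 8.50, then 4.37 and 12.3, so that wild type stood above its day 2 level and Kmt2d+/βgeo below it. Hif1a was at 0.730 and 0.773, then 1.06 and 0.864, then 2.17 and 0.870. The proteasome list had medians of 0.22, 0.16 and -0.67 on days 0, 2 and 8. For fatty acid oxidation they were -0.08, 0.08 and -0.71, and for chaperonin 0.16, 0.27 and -0.76. The median of the ribosomal list went from 0.01 and 0.08 to 0.42.

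Apoe and Gsn stood on the other side of 0 on earlier days. With Kmt2d+/βgeo first, Apoe was at 14.1 and 5.88 on day 0, 210 and 150 on day 2, and 94.7 and 230 on day 8. Its wild-type level at day 4 was 224, near that of day 8. Gsn was at 0.249 and 0.170, then 0.520 and 0.294, then 0.240 and 1.51. Vim was at 35.4 and 30.3, then 81.8 and 50.5, then 43.7 and 86.6. Sparcl1, by contrast, was lower in Kmt2d+/βgeo on each of these days, at 3.27 and 6.52, 6.87 and 16.8, and 5.82 and 14.4. Whether the ratios of these genes differ between days was not tested, since each day had 1 library per label.

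**Figure D3:**
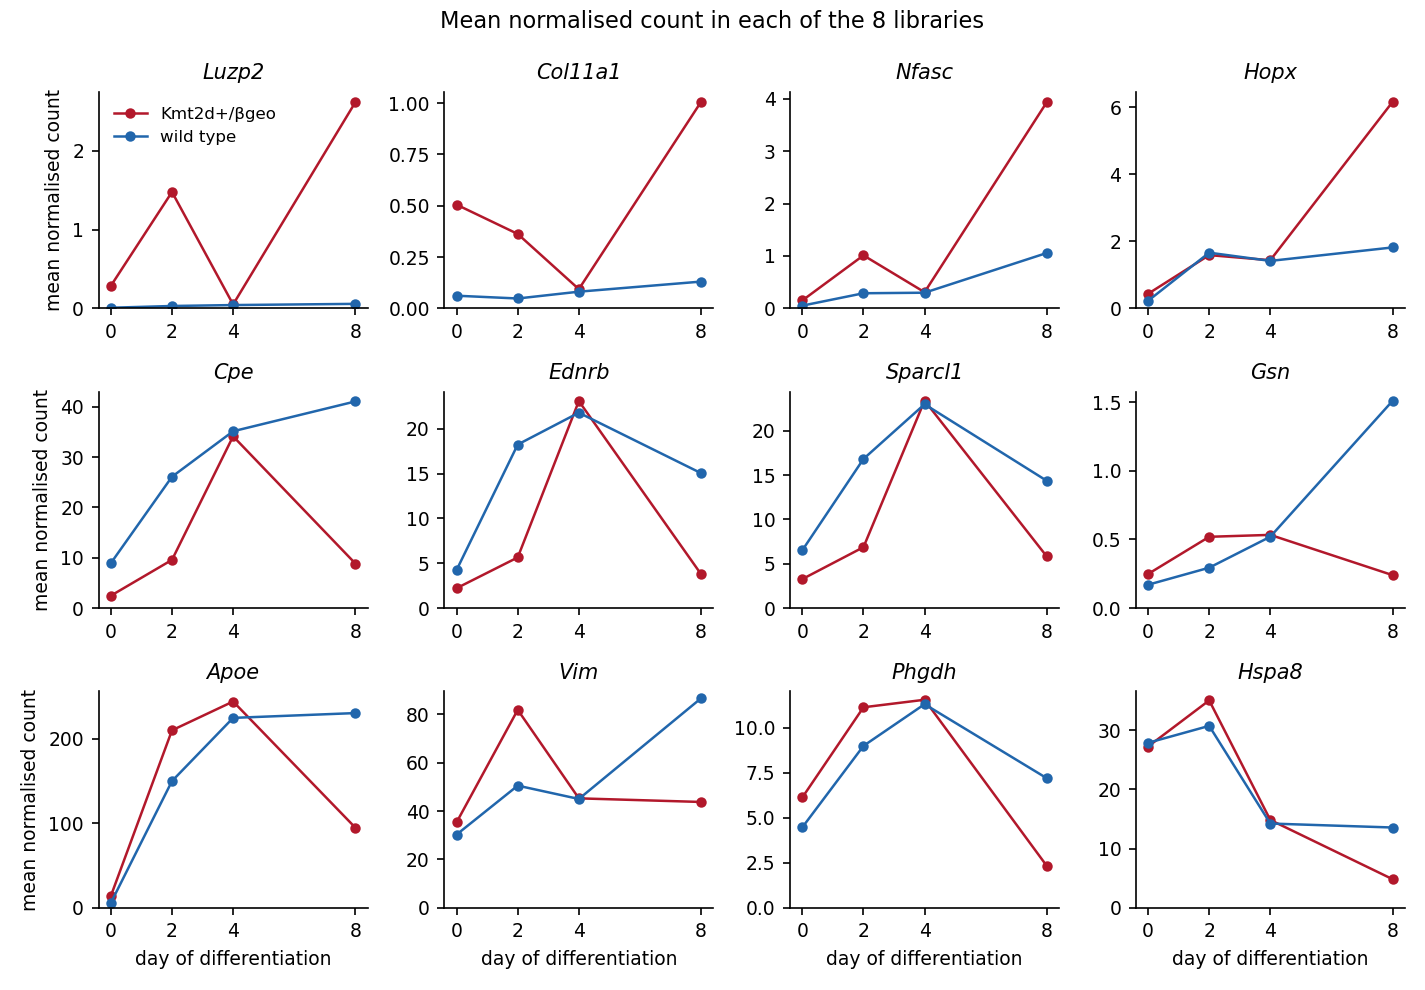
Mean normalised count (vertical, linear from 0) of 12 genes on days 0, 2, 4 and 8, with 1 point per library and lines joining libraries of 1 label, Kmt2d+/βgeo in red and wild type in blue. Luzp2, Col11a1 and Nfasc are higher in Kmt2d+/βgeo on days 0, 2 and 8, Apoe and Gsn are higher on days 0 and 2 and lower on day 8, and at day 4 the libraries nearly coincide.

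Summed over each cell thinned to 3000 UMIs, the 156 higher genes held a median of 47 UMIs in Kmt2d+/βgeo and 19 in wild type at day 8, with 10th to 90th percentiles of 34 to 62 and 12 to 27. Without Apoe, the 213 lower genes held 48 (35 to 64) and 124 (101 to 146). Since these genes were chosen for their day 8 ratio, the gap describes its spread over cells and is no result. In wild type the lower genes without Apoe held 83, 114 and 125 UMIs on days 0, 2 and 4, and in Kmt2d+/βgeo 81 and 105 on days 0 and 2. The higher genes held 17, 20 and 17 UMIs in wild type on days 0, 2 and 4 and 26 and 30 in Kmt2d+/βgeo on days 0 and 2.

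**Figure D4:**
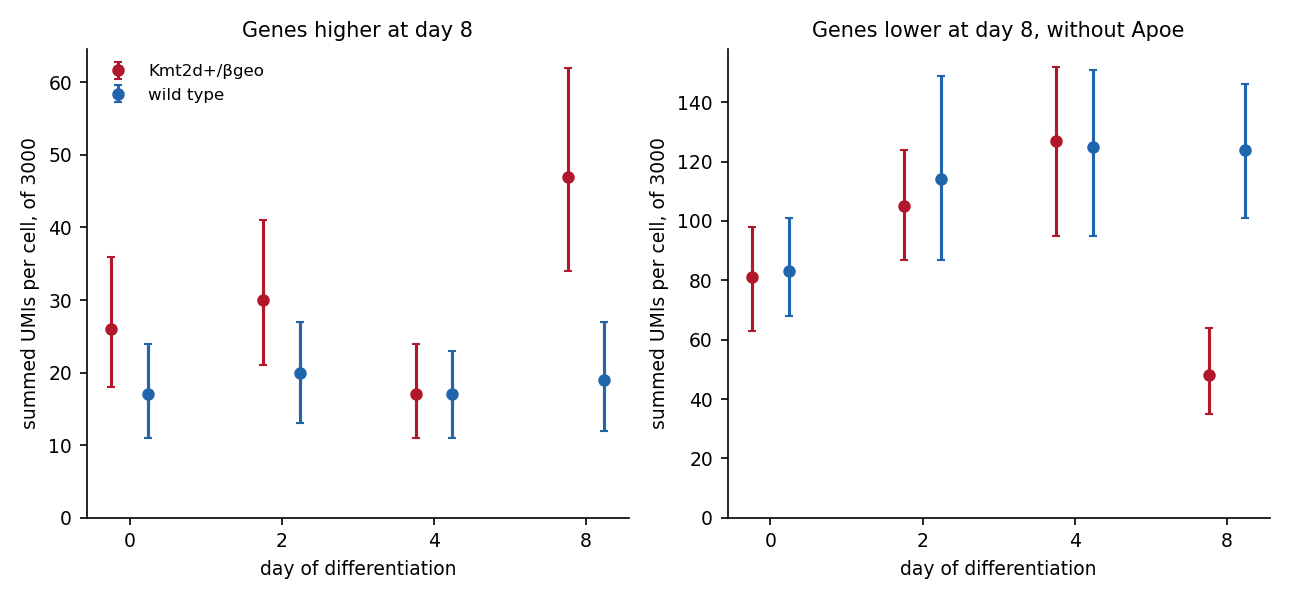
Summed UMIs per cell, of 3000 after thinning, of the 156 genes higher at day 8 (left) and the 213 lower genes without Apoe (right) in each library, as the median (point) with the 10th and 90th percentiles over cells (bars), Kmt2d+/βgeo in red and wild type in blue. The genes were chosen on day 8, where the ranges of 34 to 62 and 12 to 27 UMIs, and of 35 to 64 and 101 to 146, do not overlap.

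Thinning kept 118 of the 156 higher genes and 168 of the 213 lower genes past the threshold, or 75.6% and 78.9%, and turned the sign of 0 of them. At 1500 UMIs per cell, with fewer shallow cells left out, 323 of the 369 stayed past it, against 286 at 3000. Among genes of at least 0.5 in either library that were not kept were Abhd2, a lipid hydrolase (ratio 1.58, and 0.72 after thinning), Igsf11, Kdelr2, Cd44 and Jarid2 of the higher, and Idh2, Anxa2, Prdx2 and Psph of the lower. Actb and several of the higher genes were at higher levels in the shallowest cells of the Kmt2d+/βgeo library. In its 742 cells of at most 2975 UMIs, the shallowest cells, Actb was at 152 against 58.0 in the other 2223 cells, Notch2 at 4.96 against 1.65, Spry2 at 2.96 against 1.06 and Abhd2 at 1.48 against 0.387. In wild type the same share of cells lay at 5975 UMIs or fewer, 803 cells, above the Kmt2d+/βgeo median of 3972, so its shallowest cells were deeper. Their levels were 46.4 for Actb and 0.739 for Notch2, against 41.6 and 0.639 in the rest of that library. Apoe went the other way within Kmt2d+/βgeo, at 52.6 in the shallow cells and 109 in the rest, and was at 236 and 228 in wild type. Of 3398 genes with a mean of at least 0.5, 18 differed past the threshold between the shallowest cells and the rest in Kmt2d+/βgeo and 4 in wild type, at these unequal depth limits. Luzp2 (2.82 and 2.55), Cpe (8.70 and 8.92) and Col11a1 (0.985 and 1.01) hardly moved with depth in the Kmt2d+/βgeo library. What set the shallow cells apart was not tested.

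**Figure D5:**
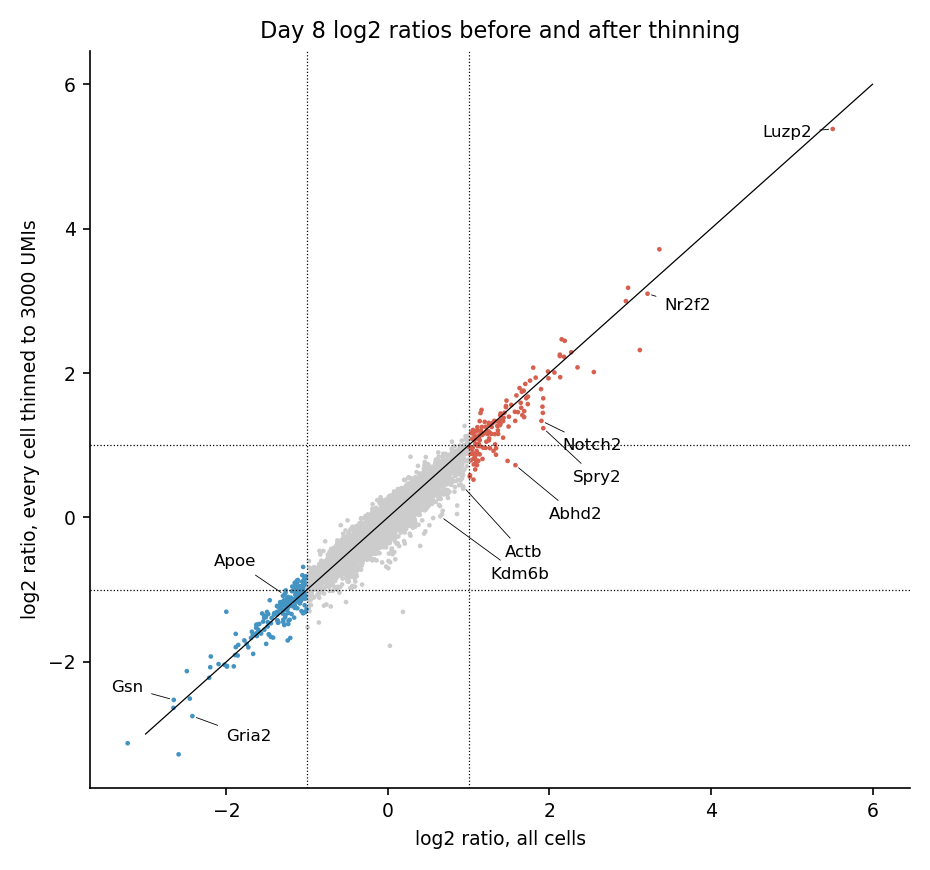
Log2 ratio of each compared gene at day 8 with all cells (horizontal) and with every cell thinned to 3000 UMIs (vertical), equality as a solid line and ratios of 1 and -1 dotted. Luzp2, Gsn and Nr2f2 lie near the line, whereas Notch2, Spry2, Abhd2 and Actb lie below it.

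The genes past the threshold also differed in kind. Of the 156 higher genes, 15 were annotated as other than protein-coding, or 9.62%, against 1 of the 213 lower genes, or 0.469%, and 1.90% of all compared genes. Among these 15 were Fzd10os, Gm47283, Hotairm1, annotated as antisense in the Hoxa cluster (1.09 and 0.342, ratio 1.67, with the strand setting of the counting not stated), Crnde (ratio 2.13) and the pseudogene BC064078 (ratio 1.66), whose reads may be shared with related copies. The median genomic length from start to end was 74.9 kb for the higher genes, 37.5 kb for the lower genes and 33.6 kb for all. Between 3.42% and 7.16% of the compared genes passed on each autosome and 4.58% on chromosome X, beside 4.87% overall. Of genes annotated on chromosome Y 2 of 5 passed, Gm47283 as higher and Eif2s3y as lower, while Ddx3y, Kdm5d and Uty did not. Within 10 Mb of Kmt2d on chromosome 15, 74 other genes were compared, and 2 were higher, Ppp6r2 (ratio 1.17, and 0.81 after thinning) and Ppp1r1a, and 0 lower.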

How the data were processed

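Droplet single-cell libraries with 3′ tags were made from both genotypes on 4 days. Per the labels' processing notes, the tools were Salmon 1.3.0 with alevin and Seurat 3.2.2, on GRCm38. The deposited values are log2 of counts of spliced molecules scaled by library size, after the authors had left out outlying cells by UMIs, genes, mitochondrial share or doublet score. No doublet caller was run again. Total UMIs per cell were deposited as the authors' estimated count in the cell table, with medians of 7926 and 14243 in the day 8 libraries. Of 9140 gene identifiers 9137 were found in GENCODE M21 and 9062 had the same coordinates there.

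UMIs were recovered as multiples of the commonest nonzero value of a cell, and 86.8% of values came out within 0.01 of a whole number. Genes with a mean normalised count of at least 0.1 in either library were compared and counted at a log2 ratio of 1 or -1. Cells were thinned without replacement to 3000 UMIs. Ratio intervals are exact conditional 95% intervals of summed thinned UMIs. These steps were tested on simulated data. Alternatives changed the depth, minimum level, scaling, weighting of cells and scale. The named genes were the 12 highest and 12 lowest ratios of at least 0.5 in either library that passed before and after thinning, the 5 largest gains and losses, up to 2 per list and direction past the threshold at a mean of at least 0.5, and a fixed set (Kmt2d, Ddx3y, Eif2s3y, Kdm5d, Uty, Apoe, Luzp2, Vim, Fabp7, Gja1, Slc1a2, Slc1a3, Sox9, Olig2, Hopx, S100b, Aldh1l1 and Top2a). Genes named outside this rule were chosen after their values were seen, most of them to complete a list's count. Some items are not reported here. The comparison and all lists were chosen with earlier results of these data known. Python 3.11.15, NumPy 2.4.6, pandas 2.3.3, SciPy 1.17.1 and Matplotlib 3.10.9 were used.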

Additional observations from a re-analysis of the deposited data

Results flagged for a closer look

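A total of 6 genes past the threshold at day 8 were past it in the opposite direction on day 0 or day 2, and none of these differences between days was tested. Of the 156 higher genes, 4 (2.56%) were lower past the threshold at day 0 and 0 at day 2, beside 0.977% and 1.11% of all genes. Of the 213 lower genes, 1 (0.469%) was higher at day 0 and 1 at day 2, beside 0.832% and 1.65% of all genes. Apoe had a log2 ratio of -1.28 at day 8 and 1.26 at day 0. Bace2, a protease related to the β-secretase, was at -1.32 at day 8 and 1.25 at day 2. Ildr2 was at 1.22 at day 8 and -1.08 at day 0, and Gucy1a1, a subunit of soluble guanylate cyclase, was at 1.36 and -1.17 on the same days. Smoc2, a secreted matrix protein, was at 2.18 at day 8, -1.03 at day 0 and 0.79 at day 2. Rbfox3 was at 1.26 at day 8, or 0.96 after thinning, and -1.70 at day 0, where its mean normalised counts were 0.0054 and 0.017.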

How the results depend on the processing

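With a minimum mean of 0.5, 64 genes were higher and 112 lower, because fewer genes were compared, and 36.4% of those past the threshold were higher. Differences of mean log2 values gave 4, 26 and 13.3%. In cells of 4000 to 8000 UMIs the share was 35.8% and the counts 121 and 217. The cause of these moves was not tested. Elsewhere the counts stayed between 131 and 213 higher and between 191 and 252 lower, and the share stayed within 37.2 to 47.5%. That range is the 95% binomial interval of the main value. It treats genes as independent and measures no spread between libraries, so it served only as a fixed yardstick. The settings within these ranges included leaving out the shallowest cells of each library (134 and 211), which was chosen after the data were seen. Thinning to 1500 UMIs kept 323 of the 369 genes past the threshold, against 286 at 3000. Of 50 named genes past the threshold 0 changed sign in the 497 values that the 10 alternatives gave, and 44 stayed past it in every one that gave a value, other than mean log2 values. Settings that changed only the minimum mean left each ratio as it was, and centring shifted every ratio by the median of 0.011. The 24 genes chosen as highest or lowest had to pass at 3000 UMIs. These values thus had little or no room to differ from the main ones. Cpe and Apoe had no value without the 50 most abundant genes, and Top2a none at the minimum of 0.5. Among the other 6 were Cd44, Psph, Kcnk2, Top2a and Insig1. Of 28 list medians, 15 changed sign under at least 1 alternative, all of them medians between -0.38 and 0.34 in the main setting. The 5 lists added after the values were seen are not among the 28, and of their medians that of the mitochondrial ribosomal list changed sign after thinning. No paired analysis was possible because each group had 1 library and the result comes from no test. Depth limits the reading of low genes most in the Kmt2d+/βgeo library, and without replicate libraries no difference can be told apart from one between cultures.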
